A study of Mus musculus with 768 samples.

Results

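The axon guidance ligands and receptors were followed across 3 populations of sorted mouse endothelial cells. They were taken by gene symbol as all semaphorins of classes 3 to 7, plexins, Slit ligands, Robo receptors, netrins, Unc5 receptors, ephrins and Eph receptors listed in the files, which gave 65 genes of 51734 features. The cells were negative for CD45 and positive for CD31. Cells that bound MECA-79, an antibody to the sulfated glycans by which high endothelial venules (HEVs) capture lymphocytes, were sorted from lymph node into plates pool1 and pool2, here LN_HEV, and from PyMT tumours, a mammary cancer model in mice, into plates pool3 and pool4, here TU_HEV. Cells without MECA-79 binding came from PyMT tumours (TU_EC, plates poolA to poolD). Tumours had been digested with enzymes and depleted of leukocytes and EpCAM-positive cells with beads. The labels name no animal, strain, age or treatment for any group, so each group was 1 sample and no test was made. Plate values are given to show the spread, which may be technical.

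Axon guidance molecules steer growing nerve endings by attraction and repulsion, and blood vessels use the same families. Semaphorins signal through plexins, partly with neuropilins as co-receptors. Slits bind Robo receptors, netrins bind Unc5 receptors among others, and membrane-bound ephrins on one cell bind Eph kinases on its neighbour. In vessels, Ephrin-B2 marks arteries and EphB4 marks veins, Plexin-D1 and Unc5B restrain sprouting, and Robo4 is a receptor made mainly by endothelial cells.

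After filters 62 and 79 LN_HEV cells (pool1 and pool2), 50 and 48 TU_HEV cells (pool3 and pool4) and 68, 81, 82 and 72 TU_EC cells (poolA to poolD) remained. The groups held 142357765, 146215450 and 221773977 counts in this order. Cells held 58737 to 4002554 counts. From pool1, 11 libraries were left out because 16 TU_HEV libraries are held inside them: 97.2% to 100% of rarely detected genes reached at least 90% of their count there. Levels are counts scaled to a total of 1000000 (CPM) over the summed cells of a plate or group. The 5 pan-endothelial genes were above 5 CPM in all plates. Of the 6 HEV markers, 3 or more reached 10 CPM in every LN_HEV cell but in 14 of 98 TU_HEV cells, and 26 TU_HEV cells had none. Glycam1, which encodes a HEV mucin, stood at 64633, 127.7 and 0.198 CPM in LN_HEV, TU_HEV and TU_EC. Ribosomal RNA features took 13.5%, 8.09% and 25.3% of counts. TU_EC libraries lie in another file and series of library numbers than the other plates, so this difference and the gate cannot be told apart.

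Of the 65 genes, 22 reached 20 CPM in a group, 6 lay between 5 and 20 CPM (Ntn1, Plxnb1, Sema3a, Sema3b, Sema3g and Sema4c) and 37 stayed under 5 CPM in all groups. The 37 include all 3 Slits, the ligands of Robo receptors, whose highest level was 2.54 CPM for Slit2 in LN_HEV. The other ligands among them were Sema3c, Sema3d, Sema3e, Sema4a, Sema4b, Sema4d, Sema4f, Sema4g, Sema5b and Sema6c, Ntn4 and Ntn5, and Efna2, Efna3, Efna4, Efna5 and Efnb3. The receptors were Plxna3, Plxnb3, Plxnc1, Robo3, Unc5a, Unc5c, Unc5d, Epha1, Epha3, Epha5, Epha6, Epha7, Epha8, Epha10, Ephb2, Ephb3 and Ephb6. Of the 37, 11 had no count in retained cells. Epha3, Epha5, Ephb3, Ntn5, Plxnb3, Sema3c, Sema4f, Unc5a and Unc5d had none in any library, and the others were Epha7 and Epha10. In LN_HEV 21 genes reached 5 CPM, in TU_HEV 22 and in TU_EC 24. Among the 28 genes at 5 CPM or more in a group, the level was highest in LN_HEV for 5, in TU_HEV for 7 and in TU_EC for 16. The summed level of all 65 was 1201, 1925 and 2755 CPM.

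**Figure D1:**
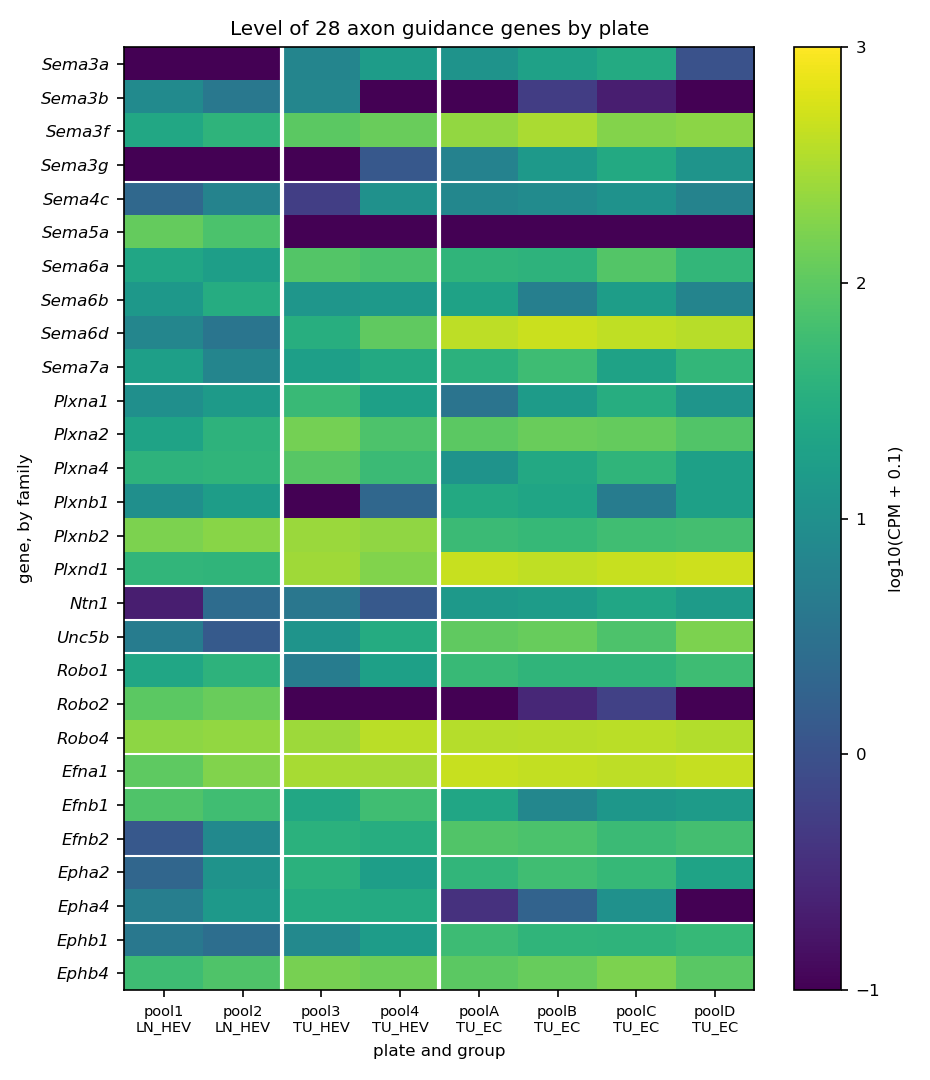
Colour shows log10(CPM + 0.1) of the 28 genes that reached 5 CPM in a group (rows, by family) in each plate (columns, with white lines between groups). Robo2 and Sema5a are bright in the 2 LN_HEV plates alone, and Sema6d, Plxnd1 and Unc5b are brightest in the 4 TU_EC plates.

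The stretch of 250 bases before the start site is shown for 4 genes: Robo2 and Sema5a, which were high in LN_HEV alone, and Sema6d and Unc5b, which were lowest in LN_HEV and highest in TU_EC. The sequences are those of RefSeq for GRCm38.p6, 5′ to 3′ on the strand of the gene, at chr16:74411826-74412075 (minus strand, the start among 3 listed that is nearest to the annotated gene end) for Robo2, chr15:32244563-32244812 (plus) for Sema5a, chr2:124089719-124089968 (plus, nearest of 2) for Sema6d and chr10:60831582-60831831 (minus) for Unc5b. Capitals mark matches to 7 short motifs on either strand.
Robo2: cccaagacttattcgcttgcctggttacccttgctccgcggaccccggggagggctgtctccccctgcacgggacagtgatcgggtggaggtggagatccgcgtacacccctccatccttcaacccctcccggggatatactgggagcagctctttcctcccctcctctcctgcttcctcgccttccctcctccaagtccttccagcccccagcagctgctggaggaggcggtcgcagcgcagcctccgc
Sema5a: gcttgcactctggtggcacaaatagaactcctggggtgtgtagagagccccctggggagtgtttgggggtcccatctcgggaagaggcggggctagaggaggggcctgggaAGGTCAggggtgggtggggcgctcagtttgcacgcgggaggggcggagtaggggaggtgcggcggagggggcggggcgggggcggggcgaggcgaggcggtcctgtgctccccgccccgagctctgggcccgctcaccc
Sema6d: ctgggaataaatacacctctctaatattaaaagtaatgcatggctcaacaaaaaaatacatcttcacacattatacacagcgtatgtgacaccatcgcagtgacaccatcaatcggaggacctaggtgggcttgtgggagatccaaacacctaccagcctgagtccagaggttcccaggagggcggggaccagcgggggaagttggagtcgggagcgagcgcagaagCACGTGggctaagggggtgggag
Unc5b: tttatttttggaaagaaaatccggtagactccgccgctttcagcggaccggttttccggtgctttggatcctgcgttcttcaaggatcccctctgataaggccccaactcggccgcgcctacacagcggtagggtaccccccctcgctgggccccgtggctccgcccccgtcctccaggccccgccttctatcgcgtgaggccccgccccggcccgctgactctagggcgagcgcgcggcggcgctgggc
GC content was 65.6% for Robo2, 72.0% for Sema5a, 52.4% for Sema6d and 66.8% for Unc5b, against a median of 52.7% over the windows of all genes. The motifs searched were the hypoxia response core ACGTG, the nuclear receptor half-site AGGTCA, the forkhead motif TGTTTAC, the NF-kB motif, the RBPJ motif GTGGGAA, the ETS motif CCGGAAG and the TATA motif TATAAA. In the Sema6d sequence both strands of 1 palindrome match ACGTG, and Sema5a has 1 AGGTCA. Robo2 and Unc5b have no match to the 7 motifs in the stretch shown. Over windows of 300 bases (250 before and 50 after a start), ACGTG was found in 19.6% of 32851 windows and AGGTCA in 16.3%. By gene, 4 of the 22 genes matched to the table had ACGTG, against 21.8% of all 27025 genes, and 6 had AGGTCA, against 18.1%. The 6 genes without an entry were Ntn1, Plxna1, Plxna4, Sema3b, Sema3f and Sema6a. These matches describe letters and were set against no binding data.

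Per length of annotated exons, in CPM divided by the length in kilobases (RPKM), Efna1 was the highest of the 65 genes in every group. Ephrin-A1, its product, is a membrane-anchored ligand of EphA receptors. Its level was 78.8 RPKM in LN_HEV, 159.6 in TU_HEV and 234.5 in TU_EC. Robo4 followed with 41.2, 62.4 and 69.2 RPKM. The lowest plate of Efna1 lay above the highest plate of Robo4 in each group. Next in LN_HEV came Plxnb2 (23.4 RPKM), Efnb1 (19.6), Ephb4 (15.1) and Robo2 (6.62). Next in TU_EC came Plxnd1 (62.7 RPKM), Sema3f (44.7), Sema6d (39.6), Ephb4 (25.5) and Unc5b (18.1), and the plate ranges of Robo4 and Plxnd1 overlapped there. In TU_HEV the levels of Plxnb2 (29.9 RPKM), Ephb4 (29.7) and Plxnd1 (29.3) overlapped between plates.

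TU_HEV against LN_HEV compares cells with the same antibody gate in tumour and lymph node. In LN_HEV the Slit receptor Robo2 and the semaphorin Sema5a stood at 112.4 and 90.6 CPM, and neither gave a single count in TU_HEV. Per length they ranked 6 and 10 among the 65 genes in LN_HEV, at 6.62 and 4.85 RPKM. In TU_HEV the semaphorins Sema6d and Sema3f, the netrin receptor gene Unc5b, the ephrin gene Efnb2 and the plexin gene Plxnd1 were 3.35- to 15.3-fold higher than in LN_HEV. A gene was called when the groups lay at least 2-fold apart with at least 5 CPM in the higher one. Of 26 members that could be called, 14 were higher in TU_HEV, against 23.2% of all 10956 features tested, and 4 were higher in LN_HEV, against 10.8%. For all 18 the plates of the groups did not overlap. Of all features tested 20.2% were called higher in TU_HEV and 8.81% higher in LN_HEV without overlap, which is 87.2% and 81.7% of the features called. The median log2 ratio was 1.02 for the members and 0.29 for all features. With size factors in place of totals, all features split into 16.5% higher and 15.6% lower with a median of -0.02, and the members' median was 0.73. With these factors 16 of the 18 calls were kept, Efna1 and Sema7a were lost, and Sema3b and Sema6b became higher in LN_HEV. Leaving out 1 plate at a time left 16 or 17 of the 18 calls. Without pool1 Efna1 was 1.69-fold and Epha4 1.97-fold higher in TU_HEV, without pool2 Sema7a was 1.27-fold higher and Robo1 1.86-fold lower, without pool3 Plxna1 was 1.42-fold higher and Robo1 1.73-fold lower, and without pool4 Sema7a was 1.61-fold higher.

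TU_HEV against TU_EC compares tumour endothelial cells with and without MECA-79 binding. The EphB ligand Efnb1, the EphA4 receptor gene Epha4 and the plexins Plxnb2, Plxna4 and Plxna1 were higher in TU_HEV. Of 25 members, these 5 were called higher in TU_HEV, against 21.9% of 10805 features, and 10 were called higher in TU_EC, against 8.29%. The 10 were Efnb2, Ephb1, Ntn1, Plxnb1, Plxnd1, Robo1, Sema3f, Sema3g, Sema6d and Unc5b. The plates did not overlap for these 10 nor for 4 of the 5, while those of Plxna1 did. Of all features tested 5.79% were called higher in TU_EC and 17.1% higher in TU_HEV without overlap, which is 69.9% and 78.4% of the features called. The median log2 ratio was -0.55 for members and 0.40 for all features. With size factors all features split into 11.5% higher and 14.3% lower, 14 of the 15 calls were kept, Plxna1 was lost, and Epha2 and Sema7a became higher in TU_EC. Leaving out 1 plate at a time left 12 to 15 of the 15 calls. Plxna1 was 1.15-fold higher in TU_HEV without pool3, 1.65-fold without poolA and 1.89-fold without poolD, and Efnb1 was 1.76-fold higher without pool4. In TU_EC Efnb2 was 1.89-fold higher without pool4, 1.91-fold without poolA and 1.96-fold without poolB, Plxnd1 was 1.71-fold higher without pool4, and Sema3f was 1.92-fold higher without pool3 and 1.81-fold without poolB.

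LN_HEV against TU_EC shares its groups with the other comparisons and sets lymph node HEV cells beside tumour endothelium without MECA-79 binding. Sema6d, Unc5b, Ephb1 and Efnb2 were 13.1- to 87.0-fold higher in TU_EC, and Robo2 was 608-fold and Sema5a at least 6696-fold higher in LN_HEV. Of 28 members, 6 were higher in LN_HEV (Efnb1, Epha4, Plxnb2, Robo2, Sema3b and Sema5a), against 18.5% of 10807 features. In TU_EC 14 were higher, against 16.9% of features. The plates did not overlap for 5 of the 6 or for any of the 14. Of all features tested 14.3% were called higher in LN_HEV and 14.3% higher in TU_EC without overlap, which is 77.4% and 84.4% of the features called. The median log2 ratio was -1.14 for members and 0.13 for all features. All 20 calls were kept with size factors, under which all features split into 15.6% higher in LN_HEV and 19.6% higher in TU_EC. Without pool1 Sema3b no longer reached 5 CPM, and without pool2 Epha4 was 1.48-fold higher in LN_HEV.

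Among class 3 semaphorins, which are secreted, Sema3f encodes a ligand of neuropilin-2. It stood at 24.5 and 39.3 CPM in the LN_HEV plates, 99.1 and 121.3 CPM in the TU_HEV plates and 227.2, 313.1, 178.1 and 204.9 CPM in poolA to poolD. The plates of the 3 groups did not overlap and rose in that order. TU_HEV was 3.35-fold (3.24 to 3.46) higher than LN_HEV, and TU_EC was 2.09-fold (2.05 to 2.12) higher than TU_HEV (95% exact Poisson intervals, which cover counting error only, since reads without molecular identifiers are not independent molecules). Sema3a, a repellent ligand for neuropilin-1, had no count in either LN_HEV plate and 11.9 and 15.5 CPM in TU_HEV and TU_EC. It was at least 563-fold higher in TU_HEV than in LN_HEV, with a floor of 3 counts over the group. With the 11 pool1 libraries that hold TU_HEV libraries the log2 ratio was 2.29. In TU_HEV its counts came from 7 cells, and 29.9% of them from 1. Sema3g, known from arterial endothelium, stood at 0, 0.65 and 15.1 CPM in LN_HEV, TU_HEV and TU_EC, and its TU_HEV counts came from 3 cells. Sema3b, also secreted, was at 5.63, 3.02 and 0.153 CPM, and a single cell held all its TU_HEV counts.

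Of the membrane-bound semaphorins, Sema5a, a transmembrane protein with thrombospondin repeats, was found in LN_HEV alone. Its level was 113.97 and 74.4 CPM in pool1 and pool2, and no count was found in any plate of TU_HEV or TU_EC. The gene lies at chr15:32244810-32696341 on the plus strand. LN_HEV was at least 4414-fold higher than TU_HEV and at least 6696-fold higher than TU_EC. Counts came from 76 LN_HEV cells, with 7.02% from the highest. When cells outside the endothelial rule were kept, Sema5a was 102.3-fold higher in LN_HEV than in TU_HEV.

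Sema6d, whose product can signal with Plexin-A1 and VEGF receptors, ran the other way. It stood at 6.66 and 3.53 CPM in LN_HEV, 32.2 and 106.1 CPM in TU_HEV and 395, 471, 421 and 373.5 CPM in TU_EC, and no plates of different groups overlapped. TU_HEV was 15.3-fold (14.2 to 16.5) higher than LN_HEV and TU_EC 5.69-fold (5.58 to 5.80) higher than TU_HEV. The gap between LN_HEV and TU_EC was 87.0-fold (80.7 to 93.9), the widest among members with counts in both groups apart from Robo2. Within TU_HEV, pool4 stood well above pool3, and without pool4 TU_HEV was 6.70-fold higher than LN_HEV and TU_EC 13.0-fold higher than TU_HEV.

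Sema6a, another transmembrane semaphorin, was at 23.2 and 17.6 CPM in LN_HEV, 84.1 and 71.8 CPM in TU_HEV and 40.6, 39.0, 84.5 and 44.8 CPM in TU_EC. TU_HEV was 3.88-fold (3.72 to 4.05) higher than LN_HEV, while poolC of TU_EC reached the level of the TU_HEV plates. Sema7a, which is lipid-anchored and binds integrins and plexin C1, was at 17.9 and 6.55 CPM in LN_HEV, 18.0 and 26.5 CPM in TU_HEV and 37.3, 58.1, 20.3 and 44.6 CPM in TU_EC. The highest LN_HEV plate and the lowest TU_HEV plate of Sema7a were nearly level. Sema6b was at 13.6 and 30.3 CPM in LN_HEV, 12.3 and 14.3 CPM in TU_HEV and 20.1, 5.32, 16.4 and 6.18 CPM in TU_EC and was not called with CPM by the total over all plates. With size factors it was 2.13-fold, without ribosomal RNA, mitochondrial and the 20 highest features 2.21-fold and without pool1 2.25-fold higher in LN_HEV than in TU_HEV. Sema4c lay at 4.50, 6.07 and 8.21 CPM over the groups, also without a call.

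**Figure D2:**
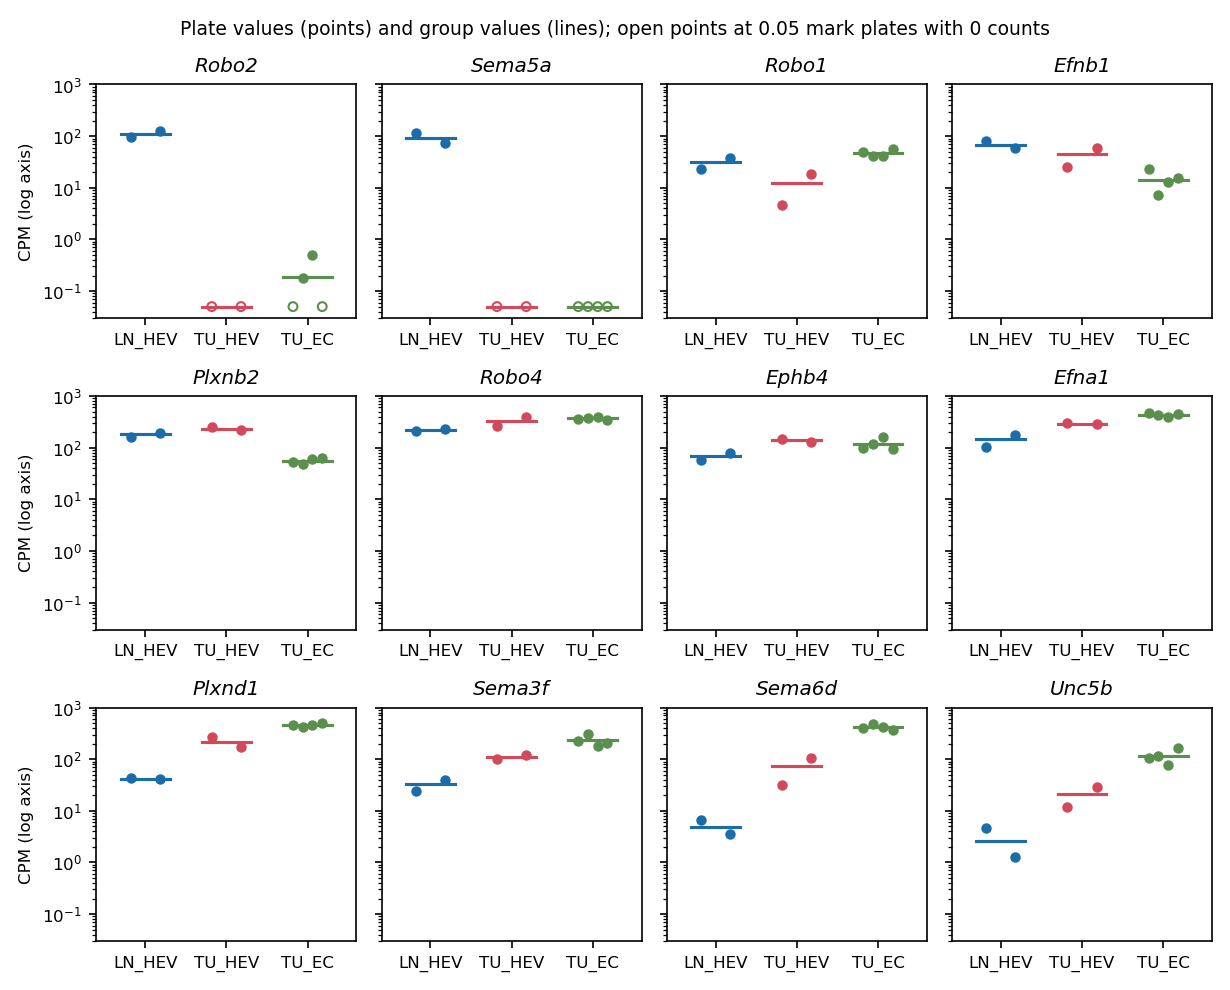
Each point is the CPM (log axis) of 1 plate and each line that of the group, for 12 genes in LN_HEV, TU_HEV and TU_EC, with open points for plates with 0 counts. Robo2 and Sema5a stand high in LN_HEV alone, while Plxnd1, Sema3f, Sema6d and Unc5b step up from LN_HEV over TU_HEV to TU_EC.

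Plexins are the receptors of semaphorins. Plxnd1, the receptor gene for Sema3e, was at 42.5 and 41.8 CPM in LN_HEV, 267.8 and 171.5 CPM in TU_HEV and 468, 412, 466 and 493 CPM in TU_EC. The plates of the 3 groups did not overlap, with steps of 5.08-fold (4.94 to 5.23) from LN_HEV to TU_HEV and 2.14-fold (2.11 to 2.17) from TU_HEV to TU_EC. Its ligand gene Sema3e was under 0.01 CPM in each group.

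Plxnb2, which encodes a receptor for class 4 semaphorins and angiogenin, was high in both HEV groups. It stood at 161.2 and 193.8 CPM in LN_HEV and 250.4 and 215.4 CPM in TU_HEV, against 53.0, 48.2, 60.1 and 63.5 CPM in TU_EC. TU_HEV was 4.12-fold (4.04 to 4.21) and LN_HEV 3.22-fold (3.16 to 3.29) higher than TU_EC, and no HEV plate overlapped a TU_EC plate. Plxna4, like Plxna2 a receptor gene for class 3 and class 6 semaphorins, was at 38.6 and 41.1 CPM in LN_HEV, 91.6 and 52.2 CPM in TU_HEV and 11.1, 26.0, 41.7 and 18.5 CPM in TU_EC. For Plxna4 TU_HEV was 2.77-fold (2.68 to 2.86) higher than TU_EC and poolC reached the level of LN_HEV.

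Plxna2 was at 20.7 and 38.7 CPM in LN_HEV, 146.7 and 76.6 CPM in TU_HEV and 98.2, 121.3, 113.7 and 82.0 CPM in TU_EC, so the tumour groups overlapped and LN_HEV lay below both. TU_HEV was 3.43-fold (3.32 to 3.55) higher than LN_HEV. Plxna1 was at 9.79 and 15.2 CPM in LN_HEV, 50.8 and 18.5 CPM in TU_HEV and 3.31, 15.5, 31.1 and 11.9 CPM in TU_EC, with TU_EC plates on both sides of pool4. Annotated exons of Plxna1 share 10.7% of their bases with the antisense gene Gm26811, which stood at 0.117 CPM or less. Plxnb1, the receptor gene for Sema4d, was at 13.7, 1.14 and 17.7 CPM in LN_HEV, TU_HEV and TU_EC, and 94.0% of its TU_HEV counts came from 1 cell.

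Robo receptors split into 3 patterns. Robo2, best known as a neuronal Slit receptor, stood at 96.7 and 123.2 CPM in the LN_HEV plates, 0 in both TU_HEV plates, and 0, 0.18, 0.504 and 0 CPM in poolA to poolD. The gene spans chr16:73891839-74411825 on the minus strand. LN_HEV was at least 5478-fold higher than TU_HEV and 608-fold (448 to 847) higher than TU_EC. Counts came from 86 LN_HEV cells, with 7.87% from the highest, and from 2 TU_EC cells. With cells outside the endothelial rule kept, the log2 ratio of TU_HEV over LN_HEV was -6.36, and without poolC the log2 ratio of LN_HEV over TU_EC was 10.69.

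Robo1, a Slit receptor gene active in vessels as well as nerves, was at 23.0 and 38.4 CPM in LN_HEV, 4.63 and 18.5 CPM in TU_HEV and 49.6, 41.4, 41.0 and 57.4 CPM in TU_EC. TU_HEV was lowest, 2.59-fold (2.45 to 2.74) below LN_HEV and 3.78-fold (3.59 to 3.97) below TU_EC, without overlap of plates. Its TU_HEV counts came from 7 cells, with 34.8% from 1, and leaving out either pool2 or pool3 ended the call against LN_HEV. With cells outside the endothelial rule kept, Robo1 was 1.82-fold lower in TU_HEV than in LN_HEV. Without pool4 it was 6.93-fold lower, and without the highest TU_HEV cell alone 3.91-fold lower than in LN_HEV and 5.71-fold lower than in TU_EC.

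Robo4, the endothelial Robo gene, was at 208.6 and 225.1 CPM in LN_HEV, 261.6 and 386 CPM in TU_HEV and 357.1, 370.6, 391 and 344.6 CPM in TU_EC. It was 1.52-fold (1.49 to 1.54) higher in TU_HEV than in LN_HEV and was called in no comparison. Sox10, a marker of Schwann cells, had no count in any group. The 6 epithelial and tumour markers had no count in LN_HEV and TU_HEV, and the 6 markers of mural cells and fibroblasts summed to 2.02, 2.19 and 9.90 CPM in LN_HEV, TU_HEV and TU_EC. Leukocyte markers summed to 12.1, 3.36 and 3.52 CPM. In cells with no leukocyte, epithelial, mural or neural marker at 10 CPM, a choice made after the data had been seen, 17 of 18, 14 of 15 and 19 of 20 calls were kept in the comparisons TU_HEV with LN_HEV, TU_HEV with TU_EC and LN_HEV with TU_EC.

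Among netrin receptors, Unc5b alone reached 5 CPM. It stood at 4.63 and 1.28 CPM in LN_HEV, 11.8 and 28.7 CPM in TU_HEV and 104.3, 115.7, 75.7 and 162.9 CPM in TU_EC, with no overlap between groups. TU_HEV was 8.02-fold (7.21 to 8.95) higher than LN_HEV and TU_EC 5.33-fold (5.13 to 5.53) higher than TU_HEV. In TU_HEV the counts came from 11 cells, and 31.3% of them from 1. In LN_HEV they came from 5 cells, with 40.8% of the counts from 1 cell of pool1. Without that cell TU_HEV was 13.4-fold and TU_EC 71.6-fold higher than LN_HEV. With 1 plate left out the ratio of TU_HEV over LN_HEV ran from 4.45-fold without pool4 to 16.6-fold without pool1, and without pool4 TU_EC was 9.60-fold higher than TU_HEV. Ntn1, the netrin-1 gene, was at 1.52, 2.35 and 17.4 CPM over the groups, from 5, 2 and 29 cells. Unc5c, at 4.11 CPM, was found in LN_HEV alone.

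Ephrins are the ligands of Eph receptors. Efna1 was at 103.1 and 172.7 CPM in LN_HEV, 295.8 and 289.2 CPM in TU_HEV and 461, 426, 396 and 441 CPM in TU_EC, and the 3 groups did not overlap. TU_HEV was 2.02-fold (1.99 to 2.06) higher than LN_HEV and TU_EC 2.97-fold (2.93 to 3.02) higher than LN_HEV. The difference from LN_HEV was just past the 2-fold limit, and under 7 of the alternatives run, besides leaving out pool1 or the highest TU_HEV cell, it was under 2-fold.

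Efnb1 and Efnb2, both ligands of EphB receptors, ran in opposite directions. Efnb1 was at 80.0 and 58.9 CPM in LN_HEV, 25.4 and 59.3 CPM in TU_HEV and 23.4, 7.11, 13.2 and 15.6 CPM in TU_EC, where LN_HEV was 4.69-fold (4.50 to 4.88) higher than TU_EC. Between pool2 and pool4 the level was nearly the same, and poolA lay just under pool3. Efnb2 was at 1.17 and 7.92 CPM in LN_HEV, 35.7 and 31.5 CPM in TU_HEV and 81.0, 73.6, 53.9 and 63.0 CPM in TU_EC, without overlap between groups. TU_HEV was 6.46-fold (5.97 to 6.99) higher than LN_HEV and TU_EC 2.03-fold (1.96 to 2.09) higher than TU_HEV. Without pool2 the first ratio was 28.5-fold, and without pool1 4.21-fold. The second was 1.85-fold with equal weight per cell, 1.78-fold after thinning and 1.95-fold without the highest TU_EC cell.

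Among Eph receptors, Ephb4, known from veins, was at 56.5 and 79.6 CPM in LN_HEV, 149.6 and 128.7 CPM in TU_HEV and 97.7, 115.8, 160.3 and 93.4 CPM in TU_EC. It was 1.97-fold (1.92 to 2.01) higher in TU_HEV than in LN_HEV, just short of a call, and the tumour groups overlapped. Ephb1, a receptor gene for B-type ephrins, was at 3.87 and 2.68 CPM in LN_HEV, 7.44 and 16.4 CPM in TU_HEV and 54.2, 41.3, 39.6 and 47.9 CPM in TU_EC. All plates were in that order, and TU_EC was 14.3-fold (13.0 to 15.7) higher than LN_HEV. Of its 451 LN_HEV counts, from 8 cells, 45.5% came from 1 cell of pool1, without which TU_EC was 26.0-fold and TU_HEV 7.15-fold higher than LN_HEV. Without pool4 TU_HEV was 2.35-fold higher than LN_HEV.

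Epha2, a receptor of ephrin-A1 active in tumour vessels, was at 1.96 and 11.4 CPM in LN_HEV, 35.3 and 17.6 CPM in TU_HEV and 43.0, 58.8, 46.9 and 20.5 CPM in TU_EC. TU_HEV was 3.38-fold (3.15 to 3.62) higher than LN_HEV, and the tumour groups overlapped. Without pool2 this was 13.0-fold, and without pool1 2.23-fold. Epha4, which encodes a receptor of both ephrin classes, was at 5.04 and 14.2 CPM in LN_HEV, 28.8 and 27.5 CPM in TU_HEV and 0.278, 1.80, 10.6 and 0 CPM in TU_EC. TU_HEV was 8.23-fold (7.62 to 8.91) higher than TU_EC, from 11 and 8 cells, with 40.6% and 47.0% of the counts from 1 cell of each. Plate poolC lay between the LN_HEV plates. Without these cells TU_HEV was 4.93-fold and 15.5-fold higher than TU_EC, and without poolC 36.7-fold. Against LN_HEV, the call of TU_HEV was lost without the highest TU_HEV cell, at 1.61-fold, and the call of LN_HEV over TU_EC was lost without the highest LN_HEV cell, at 1.94-fold.

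Shares of cells with a count were taken after each cell had been thinned to 100000 counts, which left 140, 98 and 300 cells. Robo2 was found in 57.1% [48.5 to 65.5] of LN_HEV cells (95% Clopper-Pearson interval in brackets), in 0 of 98 TU_HEV cells [0 to 3.69], and in 0.667% [0.0808 to 2.39] of TU_EC cells. Sema5a was found in 48.6% [40.0 to 57.2] of LN_HEV cells, in 0 of 98 TU_HEV cells [0 to 3.69] and in 0 of 300 TU_EC cells [0 to 1.22]. Before thinning the LN_HEV shares were 61.0% and 53.9%. Within LN_HEV, Sema5a was found in 47.5% of the 80 LN_HEV cells with Robo2 and in 50.0% of the 60 without.

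Sema6d was found in 3.57% [1.17 to 8.14] of LN_HEV, 25.5% [17.2 to 35.3] of TU_HEV and 83.3% [78.6 to 87.4] of TU_EC cells. For Unc5b the shares were 2.86% [0.784 to 7.15], 11.2% [5.74 to 19.2] and 54.0% [48.2 to 59.7]. In cells with a count the median level of Sema6d was 84.6, 153.2 and 408.6 CPM and that of Unc5b 85.4, 113.7 and 171.4 CPM, so the groups differed more in the share of cells than in the level within them. In TU_EC, 60.8% of cells with Sema6d and 20.0% of those without it had a count of Unc5b. Plxnb2 was found in 75.7% [67.8 to 82.6], 57.1% [46.7 to 67.1] and 29.7% [24.6 to 35.2] of LN_HEV, TU_HEV and TU_EC cells. Robo1 was found in 7.14% [2.92 to 14.2] of TU_HEV cells, against 34.3% [26.5 to 42.8] in LN_HEV and 33.7% [28.3 to 39.3] in TU_EC.

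**Figure D3:**
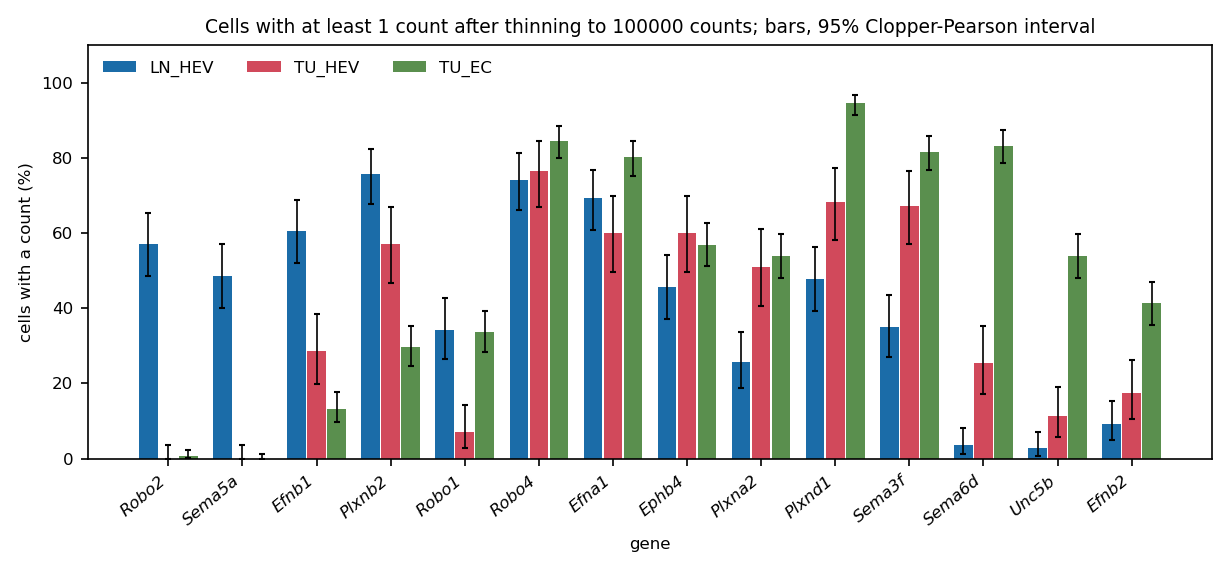
Bars show the share of cells with at least 1 count after thinning to 100000 counts, for 14 genes in LN_HEV, TU_HEV and TU_EC, with 95% Clopper-Pearson intervals. The share of Sema6d rises from 3.57% in LN_HEV over 25.5% in TU_HEV to 83.3% in TU_EC, and Robo2 and Sema5a have a bar in LN_HEV alone, apart from 0.667% of TU_EC cells for Robo2.

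The TU_EC cells were then described by their own vessel markers, none of which is a guidance gene. Cells with at least 3 markers of a list at 10 CPM or more were set against cells with none, within TU_EC. There were 51 and 85 such cells for 6 arterial markers (Gja4, Gja5, Hey1, Sox17, Bmx and Fbln5) and 43 and 91 for 6 venous markers (Ackr1, Selp, Nr2f2, Vwf, Vcam1 and Lrg1). For 6 tip cell markers (Apln, Esm1, Kcne3, Nid2, Angpt2 and Dll4) there were 48, 58, 55 and 45 cells in poolA to poolD with them. Without them there were 4, 4, 8 and 13 cells in these plates, 29 in all. The sets overlap: 32 arterial and 7 venous cells are also in the tip set. Cells with markers were sequenced more deeply, with medians of 754229 against 537966 counts in the arterial sets, 638883 against 562824 in the venous sets and 676058 against 568742 in the tip sets.

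Arterial-marker cells held more Efnb2, with 162.5 against 27.6 CPM, a ratio of 5.88 (5.57 to 6.21), and more Unc5b, with 228.2 against 72.7 CPM, a ratio of 3.14 (3.03 to 3.25). Efna1 stood at 817 against 224.5 CPM, a ratio of 3.64 (3.57 to 3.72) and Plxna4 at 50.6 against 2.62 CPM, a ratio of 19.3 (16.4 to 22.8). All 4 plates gave these directions. After thinning, Efnb2 was found in 82.4% of the cells with and 25.9% of those without arterial markers. Sema3g, at 59.4 against 9.57 CPM, a ratio of 6.21 (5.67 to 6.81), was higher with arterial markers in 3 of 4 plates. Its level with arterial markers was 156.9 CPM in poolC and 24.1, 16.9 and 47.4 CPM in poolA, poolB and poolD. A single poolC cell held 34.0% of all TU_EC counts of Sema3g. Plxnd1, at 450.5 against 436 CPM, a ratio of 1.03 (1.01 to 1.05), and Robo4, at 362.1 against 351.7 CPM, a ratio of 1.03 (1.01 to 1.05), were nearly level. Ephb4 was higher with arterial markers too, at 158.9 against 72.5 CPM, a ratio of 2.19 (2.11 to 2.28), in 4 of 4 plates. Its thinned shares were 70.6% with and 38.8% without arterial markers.

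Venous-marker cells held more Ephb4, with 211.8 against 72.6 CPM, a ratio of 2.92 (2.81 to 3.03), and more Plxnb2, with 118.2 against 27.9 CPM, a ratio of 4.23 (4.00 to 4.48), both in 4 of 4 plates. Thinned shares with and without the markers were 79.1% and 42.7% for Ephb4. Sema6a, at 95.7 against 30.2 CPM, a ratio of 3.17 (2.99 to 3.36), was higher in 3 of 4. Several members were lower with venous markers in each plate: Robo1 stood at 0.382 against 66.8 CPM, Sema7a at 0.794 against 49.3 CPM, Unc5b at 8.35 against 123.9 CPM and Sema6d at 95.0 against 560.03 CPM. Sema3f was at 79.6 against 270.1 CPM. Thinned shares were 6.98% and 56.2% for Unc5b and 2.33% and 40.4% for Robo1.

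Tip-marker cells held more Sema6d, Unc5b, Robo1 and Sema7a. Sema6d stood at 518 against 100.3 CPM, a ratio of 5.16 (4.92 to 5.41), and Unc5b at 129.5 against 20.1 CPM, a ratio of 6.46 (5.81 to 7.19). Robo1 was at 62.2 against 7.90 CPM, a ratio of 7.87 (6.66 to 9.38), and Sema7a at 47.2 against 2.33 CPM, a ratio of 20.3 (14.9 to 28.2). Each was higher in 4 of 4 plates, and the thinned share of Sema6d was 94.6% with and 41.4% without tip markers. Ephb4, at 85.9 against 271.5 CPM, and Sema6a, at 36.8 against 121.8 CPM, were lower in each plate. Ephb1 had 1 count in the 29 cells without tip markers and 55.4 CPM in those with them. Lymphatic markers (3 or more of 5) were found in 8 TU_EC cells, where Ntn1 stood at 201.2 CPM against 9.06 CPM in cells without them and Plxna2 at 2.53 against 107.4 CPM.

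**Figure D4:**
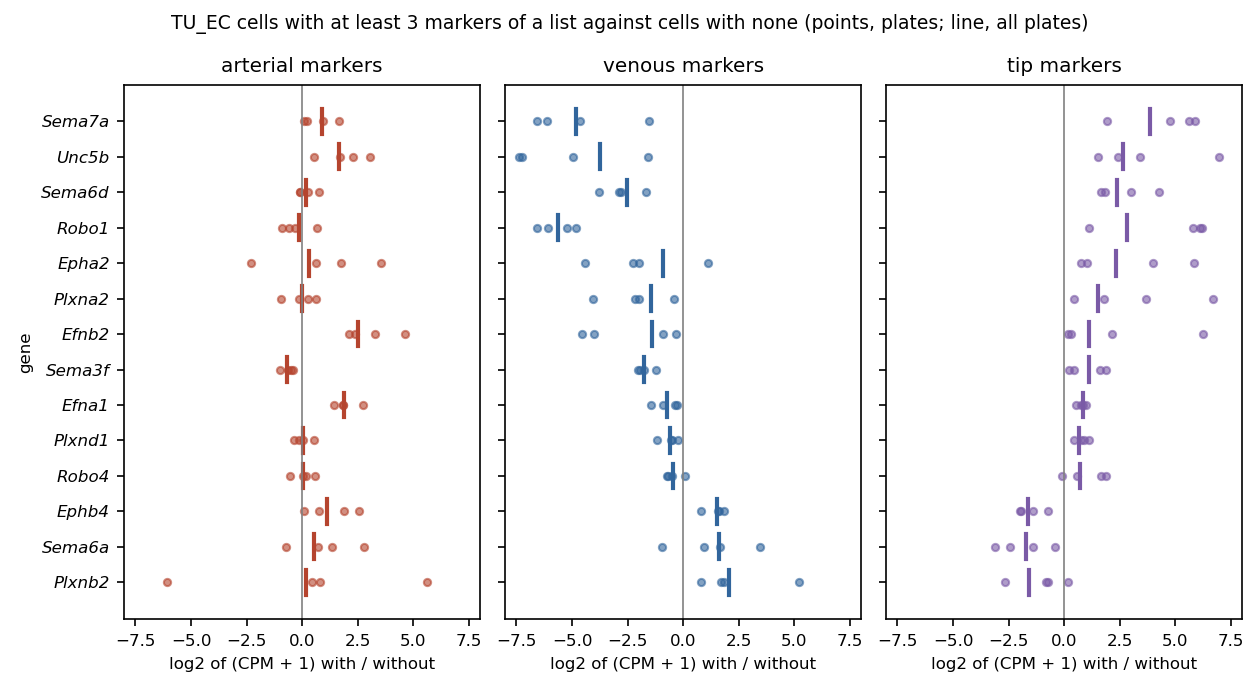
Points show, for each TU_EC plate, the log2 ratio of (CPM + 1) in cells with at least 3 markers over cells with none, and lines show the ratio over all plates, for arterial, venous and tip markers. Unc5b, Sema6d, Robo1 and Sema7a lie left of 0 for venous and right of 0 for tip markers in all 4 plates, and Ephb4 does the opposite.

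These marker lists also differed between the groups. Venous markers summed to 3601 and 5690 CPM in the LN_HEV plates, 13242 and 8726 in the TU_HEV plates and 866 to 1855 in the TU_EC plates. Tip markers summed to 177.9 and 185.5 CPM in LN_HEV, 697 and 965 in TU_HEV and 2295 to 3276 in TU_EC. At least 3 venous markers were found in 80.9% of LN_HEV, 76.5% of TU_HEV and 14.2% of TU_EC cells, and at least 3 tip markers in none, 14.3% and 68.0%.

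TU_HEV was also set against the 43 TU_EC cells with venous markers, a choice made after the data had been seen. Of the 10 members higher in all of TU_EC, 1 remained so, Ntn1, with 2.35 CPM in TU_HEV against 6.12 CPM. Plxnb1, at 1.14 against 0.382 CPM, and Sema3g, at 0.65 against 0 CPM, lay under 5 CPM on both sides and could not be called. All counts of Ntn1 in the venous set came from poolB, and 1 of the 43 cells had a count after thinning. Here 10.7% of all features were higher in TU_EC. Members higher in TU_HEV numbered 9 of 23, against 23.4% of features: Efnb2, Ephb1, Unc5b, Robo1, Sema7a, Epha4, Plxna1, Plxna2 and Plxna4. Unc5b was 2.54-fold higher in TU_HEV, at 21.2 against 8.35 CPM, where all TU_EC cells had 113.1 CPM. Robo1 was 32.4-fold higher in TU_HEV, at 12.4 against 0.382 CPM (13 counts), and Sema7a 28.7-fold, at 22.8 against 0.794 CPM. Sema6d, at 73.5 against 95.0 CPM, and Plxnd1, at 213.99 against 345.5 CPM, were within 2-fold, as was Plxnb2, at 230.8 against 118.2 CPM. Sema5a had no count in these cells, and Robo2 was at 0.882 CPM, against 112.4 CPM in LN_HEV. With the tip-marker cells left out of TU_EC, also chosen after the data had been seen, 8 of the 15 calls between TU_HEV and TU_EC were kept, and Efnb1, Efnb2, Ephb1, Plxna4, Plxnd1, Robo1 and Sema3f were lost. The part of vessel type in the differences between all TU_EC cells and TU_HEV was not tested beyond these values.

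**Figure D5:**
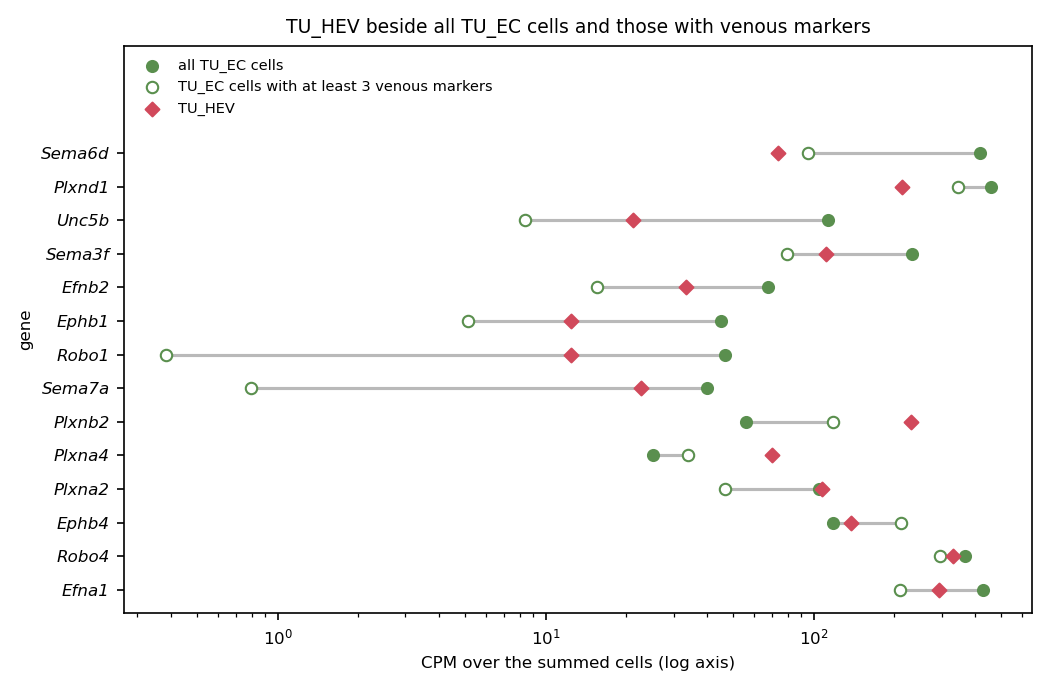
CPM over the summed cells (log axis) of 14 genes in TU_HEV (diamonds), all TU_EC cells (filled circles) and TU_EC cells with at least 3 venous markers (open circles), with grey lines joining the circles. For Unc5b, Sema3f, Efnb2, Ephb1, Robo1, Sema7a, Ephb4, Robo4 and Efna1 the TU_HEV diamond lies between the circles. Of these, Ephb4 alone has the open circle above the filled one. For Robo1 the open circle is at 0.382 CPM against 46.8 CPM over all TU_EC cells.

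Other genes of these pathways were counted over a list of 68. In TU_HEV against LN_HEV 16 of 47 measured were higher and 4 lower, in TU_HEV against TU_EC 7 of 45 were higher and 6 lower, and in LN_HEV against TU_EC 7 of 48 were higher and 17 lower. These are 34.0% and 8.51%, 15.6% and 13.3%, and 14.6% and 35.4%, against 23.2% and 10.8%, 21.9% and 8.29%, and 18.5% and 16.9% of all features. Nrp1, the neuropilin-1 co-receptor of class 3 semaphorins, was at 39.8 and 73.7 CPM in the LN_HEV plates, 279.9 and 405 in TU_HEV and 351.9, 425, 385 and 329.4 in TU_EC. Nrp1 was 5.84-fold (5.71 to 5.98) higher in TU_HEV than in LN_HEV, without overlap of plates. Of Slit and Robo signalling, Srgap3, a GTPase-activating protein that binds Robo tails, was at 24.8 and 33.4 CPM in LN_HEV, 0 and 2.88 in TU_HEV and 0.893, 0.0983, 0 and 2.05 in TU_EC, so LN_HEV was highest as for Robo2. Its relative Srgap1 was lowest in LN_HEV, at 9.41 and 3.43 CPM, against 16.3 and 33.0 in TU_HEV and 25.8, 62.1, 32.7 and 60.3 in TU_EC. Gpc1, a glypican that can bind Slits, was at 14.0 and 52.7 CPM in LN_HEV and gave 1 count in TU_HEV.

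Rnd1, a small GTPase that binds plexins, was highest in TU_HEV, at 375.1 and 240.4 CPM, against 13.6 and 28.3 in LN_HEV and 23.3, 52.2, 67.9 and 34.4 in TU_EC. Dpysl3, a collapsin response mediator protein of the family that acts below plexins, was also highest in TU_HEV, at 397 and 485 CPM against 148.7 and 141.5 in LN_HEV and 122.4, 85.7, 138.2 and 134.4 in TU_EC. Vav2, an exchange factor recruited by Eph receptors, was at 16.0 and 34.2 CPM in LN_HEV and 23.0 and 32.2 in TU_HEV, and at 4.86 CPM or less in each TU_EC plate. The kinase gene Fyn was low in LN_HEV, at 4.73 and 10.7 CPM, against 89.0 and 45.0 in TU_HEV and 70.6, 104.2, 90.3 and 81.6 in TU_EC. Ablim1 was 3.79-fold, Dpysl2 2.57-fold and Nck1 2.38-fold higher in TU_HEV than in TU_EC. Mical1 and Grb10 were 13.1-fold and 2.05-fold higher in TU_EC than in TU_HEV, and 9.75-fold and 3.44-fold higher than in LN_HEV. Vav3 was 2.61-fold higher in TU_HEV than in LN_HEV, with overlap of plates.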

How the data were processed

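Single sorted cells in wells were profiled by Smart-seq2 with 23 PCR cycles, per the labels' protocols, and read as 75-base single ends on an Illumina NextSeq. The deposited values are whole-number counts per gene and library. The submitters' processing notes name FastQC 0.11.4, STAR 2.4.1b, Subread 1.4.6-p2 and the mm10 (GRCm38) genome. No source used here names the gene annotation or strand setting, so reads of overlapping genes on opposite strands cannot be told apart.

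The 51826 rows were summed to 51734 features by symbol. Cells were kept with at least 50000 counts, 1000 genes, at most 30% of counts from 37 mitochondrial genes, at least 2 of 5 pan-endothelial genes at 10 CPM and fewer than 3 of 6 markers of each contaminating cell type, leaving 141 of 192, 98 of 192 and 303 of 384 libraries. No doublet caller was run. Counts were summed over cells and scaled to CPM. Since no label names an animal, no test was made, and 95% intervals (exact Poisson for ratios, Clopper-Pearson for shares) cover counting error only. A group at 0 was set to 3 counts over the group. Lengths and positions came from GENCODE M21 for GRCm38 (all 65 genes matched).

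Genes at 20 CPM or more in a group are given by plate, those at 5 to 20 CPM by group and the rest by name. Other pathway genes are named at 20 CPM or more and at least 2-fold apart, up to 8 in a comparison. Members, lists and rules were chosen with earlier results of these data known. Alternatives changed the scaling, the weight of cells, depth (thinning to 100000 counts, seed 1, or at least 200000 counts per cell), the filters, the dropped libraries, the thresholds and the plates, and 4 were added after seeing the data. Scripts were tested on simulated data and ran in Python 3.11.15 with numpy 2.4.6, pandas 2.3.3, scipy 1.17.1 and matplotlib 3.10.9.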

Additional observations from a re-analysis of the deposited data

Results flagged for a closer look

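Sema6a in TU_EC was flagged because 1 plate lay far from the others: poolC stood at 84.5 CPM and the other 3 plates at 39.0 to 44.8 CPM. Chance flags about 1 in 20 groups of this size.

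Signal was also found in the 11 pool1 libraries that were left out because TU_HEV libraries are held inside them. In the 10 of these that passed the filters, 7 members reached 5 CPM and stood at least 2-fold above the remaining LN_HEV cells. The share of all features past these limits was not taken, so this count cannot be set against it. Efnb2 was at 10.4 CPM against 5.16 CPM, Plxna1 at 35.8 against 13.0 CPM, Plxnd1 at 153.4 against 42.1 CPM, Sema6a at 72.7 against 19.9 CPM, Sema7a at 33.8 against 11.2 CPM and Unc5b at 5.86 against 2.65 CPM. Sema3a was at 15.6 CPM in these libraries and had no count in the other LN_HEV cells. Counts came from 1 of the 10 libraries for Unc5b, 2 for Efnb2 and for Sema3a, 3 for Plxna1, 5 for Sema6a, 6 for Sema7a and 9 for Plxnd1. Other members were lower than in the remaining LN_HEV cells. Among them Robo2 was at 14.2 against 112.4 CPM, Sema5a at 13.9 against 90.6 CPM, Robo1 at 0.228 against 32.1 CPM and Ephb1 at 1.10 against 3.17 CPM. Plxnb1 was at 0 against 13.7 CPM and Sema6b at 8.94 against 23.4 CPM. Ephb4, at 44.2 against 70.2 CPM, lay further from the TU_HEV level of 137.97 CPM, and Plxna4 was nearly level, at 39.3 against 40.1 CPM.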

How the results depend on the processing

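No paired analysis was possible because no comparison rests on a test and the groups share no numbered replicates. Over all alternatives, 26 values of counts of called members and of medians moved by more than the spread between plates or by over 1.5 times the count, and 1 changed sign. For single members 1148 values (87.5%) stayed within the spread, 11.8% moved by more and 9 called directions reversed. Leaving out the cell with most counts of a called member in a group, chosen after seeing the data, ended 7 calls among 100 such values (those of Efna1, Epha4 and Sema7a in TU_HEV over LN_HEV, Efnb2 and Plxna1 between TU_HEV and TU_EC, and Epha4 and Sema3b in LN_HEV over TU_EC) and shifted 22 ratios more than 1.5-fold. The median log2 ratio of TU_HEV over LN_HEV was 0.73 with size factors, 0.68 without ribosomal RNA, mitochondrial genes and the 20 highest features and 1.38 over members with at least 3 counts. That of TU_HEV over TU_EC was -0.99 and -0.97 with these scalings, -0.89 with equal weight per cell, -0.81 after thinning, -1.04 over members with at least 3 counts, -0.35 without tip-marker cells and 0.49 against venous-marker cells. That of LN_HEV over TU_EC was -1.84 over members with at least 3 counts and -0.54 against venous-marker cells. Leaving out 1 plate gave 0.98 to 1.5, -0.74 to -0.51 and -1.31 to -0.88 for the 3 medians in this order. With 1 plate left out, 12 to 15 members were higher in TU_HEV and 4 to 5 in LN_HEV, 4 to 5 in TU_HEV and 8 to 11 in TU_EC, and 6 to 8 in LN_HEV and 14 to 17 in TU_EC. The shares of all features moved as well, in the same order. They ran from 20.8% to 36.6% and 8.73% to 14.9%, then from 21.3% to 26.7% and 8.26% to 13.2%. For LN_HEV and TU_EC they ran from 14% to 24.2% and 15.9% to 26%. With no minimum level the counts of members were 25 and 10, 12 and 24, and 11 and 32. The members added there lay under 5 CPM in both groups compared. At 4-fold, 5 were higher in TU_HEV than in LN_HEV, 2 were higher in TU_HEV than in TU_EC and 5 lower. The share of all features was not taken at either setting, so these counts cannot be set against it. Without ribosomal RNA, mitochondrial genes and the 20 highest features, 7 were higher in LN_HEV than in TU_HEV, where the share of all features rose from 10.8% to 17.3%. Against venous-marker cells, 9 were higher in TU_HEV and 1 in TU_EC, beside 23.4% and 10.7% of all features. Without tip-marker cells 3 of 27 were higher in TU_HEV, beside 24.3% of all features. Directions that reversed against venous-marker cells, as log2 of TU_HEV over TU_EC, were those of Efnb2 (1.10), Ephb1 (1.27), Plxnb1 (1.57), Robo1 (5.02), Sema3f (0.49), Sema3g (2.88) and Unc5b (1.35), and Sema7a in LN_HEV over TU_EC (3.82). Of these, Plxnb1 and Sema3g lay under 5 CPM on both sides, and the value of Sema3g rests on the floor of 3 counts. Robo1 in TU_HEV over TU_EC was 0.50 without tip-marker cells. With the dropped libraries, Sema6a in LN_HEV over TU_EC was -0.91 and no longer called. Causes were not tested beyond these choices of cells and features. At equal depth the number of cells sets the upper limit of a share of 0, which is 3.69% for 0 of 98 cells.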
